A study of Saccharomyces cerevisiae with 56 samples.

Results

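The segregants with the highest and the lowest transcript level of the seripauperin (PAU) genes were compared, 11 with 11, out of 44 segregants of a cross between the wine yeast derivative 59A and the laboratory strain S288C. The groups were chosen by measured values: the segregants were ranked on the mean log2 intensity of the 20 PAU genes that had a value on all 44 arrays. The 22 segregants of ranks 12 to 33 lay between them. The PAU levels of the groups are therefore a description and were not tested, and the tests concern only transcripts outside the family. Of the 24 PAU genes on the array, PAU3, PAU8, PAU14 and PAU19 lacked values on some arrays and did not enter the rank.

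59A (MATa, ho) is a haploid spore derivative of the industrial wine yeast EC1118, and S288C (MATα, SUC2, gal2) is the strain of the reference genome. All cells, parents and segregants alike, were grown in a synthetic must of pH 3.3 with 425 mg/L of assimilable nitrogen, supplemented with p-aminobenzoic acid and iron chloride. Airlocks kept the fermenters anaerobic, and less ergosterol and oleic acid was supplied than is usual for this must. Sampling took place in stationary phase, when 66 g/L of CO2 had been released and 70% of the fermentation was over. The RNA was read with Cy3 on 56 one-colour arrays, with 1 array for each segregant and 12 for the parents, which are 2 RNA extracts a strain with 3 technical arrays each. A segregant is thus a distinct genotype measured once, and differences between segregants hold genetic and experimental variation together. All values are log2 intensities on which 5.3 is background and 16 is saturation.

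Seripauperins are small, serine-poor proteins related to cell wall mannoproteins, and form one of the largest gene families of Saccharomyces cerevisiae. Most of them lie near chromosome ends and are nearly identical in sequence. They are known for induction under anaerobiosis and in wine fermentation, with the DAN and TIR mannoproteins as relatives that replace the aerobic wall mannoproteins when oxygen is lacking. Oxygen acts on these genes through haem and sterols: Hap1 senses haem, Rox1 and Mot3 repress hypoxic genes in air, and Upc2, Ecm22 and Sut1 act on sterol uptake and synthesis. Since the copies are so alike, a probe for a PAU gene can bind transcripts of its relatives, and values of single members are uncertain to that extent.

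The PAU level ran without a clear break over the segregants, from 11.26 in 14a to 14.72 in 20b. The high group held, from the top, 20b (14.72), 5c (14.66), 16b (14.65), 22a (14.61), 1b (14.53), 15b (14.52), 9c (14.49), 29b (14.47), 3a (14.29), 10b (14.28) and 18c (14.18). The low group held, from its upper edge down, 21c (12.93), 14b (12.78), 24a (12.75), 29c (12.74), 28b (12.72), 20a (12.40), 22d (12.32), 19c (12.10), 16d (11.999), 23b (11.71) and 14a (11.26). The levels thus fanned out towards the bottom, where the largest gap between neighbours, 0.45, parted 14a from the rest. Just outside the groups lay 6b at 14.16, only 0.017 below 18c, and 9a at 13.05, 0.12 above 21c. The group means were 14.49 ± 0.18 and 12.34 ± 0.52 (SD, n = 11 each), a difference of 2.15 or 4.45-fold.

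59A stood above this range and S288C inside it. The 6 arrays of 59A read 14.85 to 14.90 and those of S288C 12.45 to 12.54, so the parents differed by 2.37. No segregant reached the mean of 59A, whereas 6, namely 20a, 22d, 19c, 16d, 23b and 14a, lay below the mean of S288C. The midpoint of the parents was 13.68, with 26 segregants above it and 18 below. The study includes 2 complete tetrads, and names run from a to d for the numbers 16 and 22. Their levels were 13.97, 14.65, 13.60 and 11.999 in 16a to 16d, and 14.61, 13.79, 13.88 and 12.32 in 22a to 22d. In each of these series 1 segregant fell into the high group, 1 into the low group and 2 between.

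**Figure D1:**
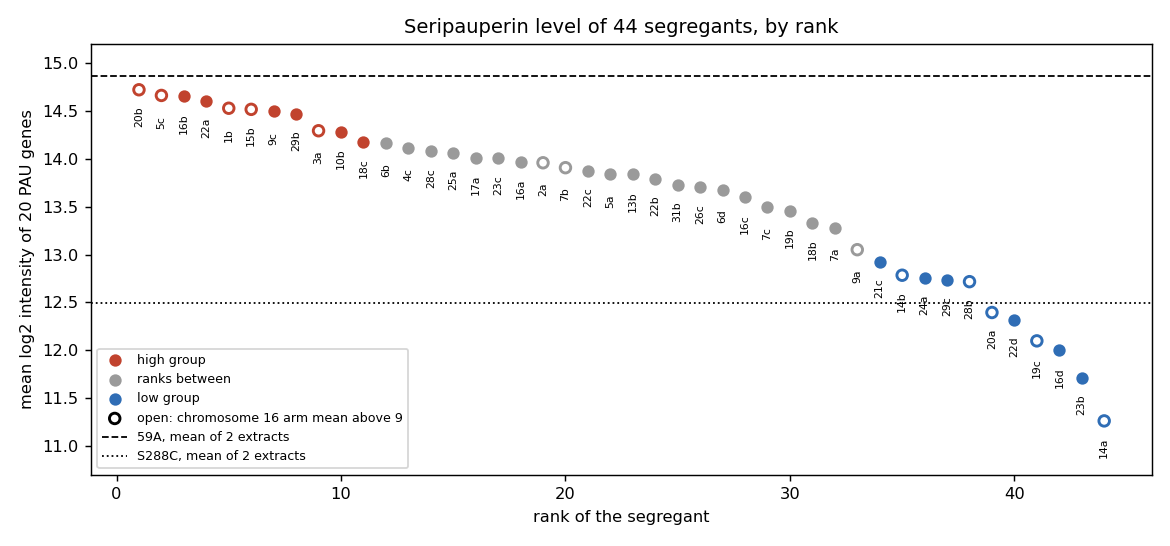
Mean log2 intensity of 20 PAU genes (vertical axis) in each of 44 segregants by rank (horizontal axis). Red points are the 11 of the high group, blue the 11 of the low group, grey the 22 between, open points have a mean of the distal left arm of chromosome 16 above 9, and lines give the parental means; no segregant reaches 59A and 6 lie below S288C.

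Slides, the added chromosome arm and mating type were set beside the groups. Of 7 slides with 8 arrays, 4 held both groups; slide 1 held 2 and slide 2 held 1 of the high group and neither held any of the low, while slide 6 held 4 of the low group and none of the high. Segregants of slide 1 lay between 13.84 and 14.53 and those of slide 6 between 11.71 and 14.06. The arrays of 59A, on 5 slides, differed by 0.050 at most in the PAU level and those of S288C, also on 5 slides, by 0.087. The mean of the genes on the distal left arm of chromosome 16, of which some segregants carry an added copy, was 9.29 or more in 5 of the 11 high and 5 of the 11 low segregants, and 8.75 or less in the others. The mean of the genes specific to a cells ranged from 5.87 to 8.40 in the high group and from 5.94 to 7.92 in the low group. In the high group 9c lacked 571 values.

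Every PAU gene had a higher mean in the high than in the low group, by 1.55 to 3.95 over the 20 used for the rank, with a median of 2.08. This follows from the choice of the groups, but the size varied between members. PAU17, on chromosome XII but away from its ends, varied most. Its values in the high group were 13.66 at the lowest, 15.11 at the median and 15.69 at the highest, against 9.42, 10.92 and 12.75 in the low group. The group means were 14.93 and 10.99, against 15.44 in 59A and 9.95 in S288C, and 3 of the 44 segregants lay below S288C. PAU23, on the same chromosome, followed with 13.55, 14.08 and 14.56 in the high group and 9.65, 10.40 and 11.76 in the low group. PAU11, on chromosome VII, read 12.86, 13.70 and 14.23 in the high group and 10.38, 11.04 and 11.72 in the low group. In these 3 genes the groups did not overlap.

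The 4 genes that the rank did not use were parted by the groups too. PAU3, on chromosome III, read 14.94 at the lowest, 15.53 at the median and 15.76 at the highest in the 10 high segregants with a value, and 11.73, 12.65 and 14.09 in the low group. The difference of the means was 2.63, next to those of PAU17 and PAU23. The differences were 2.39 for PAU19, 2.25 for PAU8 and 2.12 for PAU14. In none of the 4 did the groups overlap, but as close copies of the genes used for the rank they are no independent measure.

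At the other end of the family stood PAU20, PAU12, PAU6, PAU2, PAU4 and PAU18, with differences of 1.55 to 1.6. Among the 20 genes used, PAU4 and PAU20 were the only members whose groups overlapped. PAU4 read 12.46, 13.52 and 14.37 in the high group and 10.95, 11.90 and 12.54 in the low group. PAU20 read 12.20, 13.04 and 13.73 against 10.30, 11.33 and 12.65. PAU5 was the strongest member on the array, with a median of 15.01 over the 44 segregants, and came near saturation in the high group at 14.84 to 15.74. Its low group was the most uneven of the members used apart from PAU17, with an SD of 1.14, and reached down to 10.89 in 14a.

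**Figure D2:**
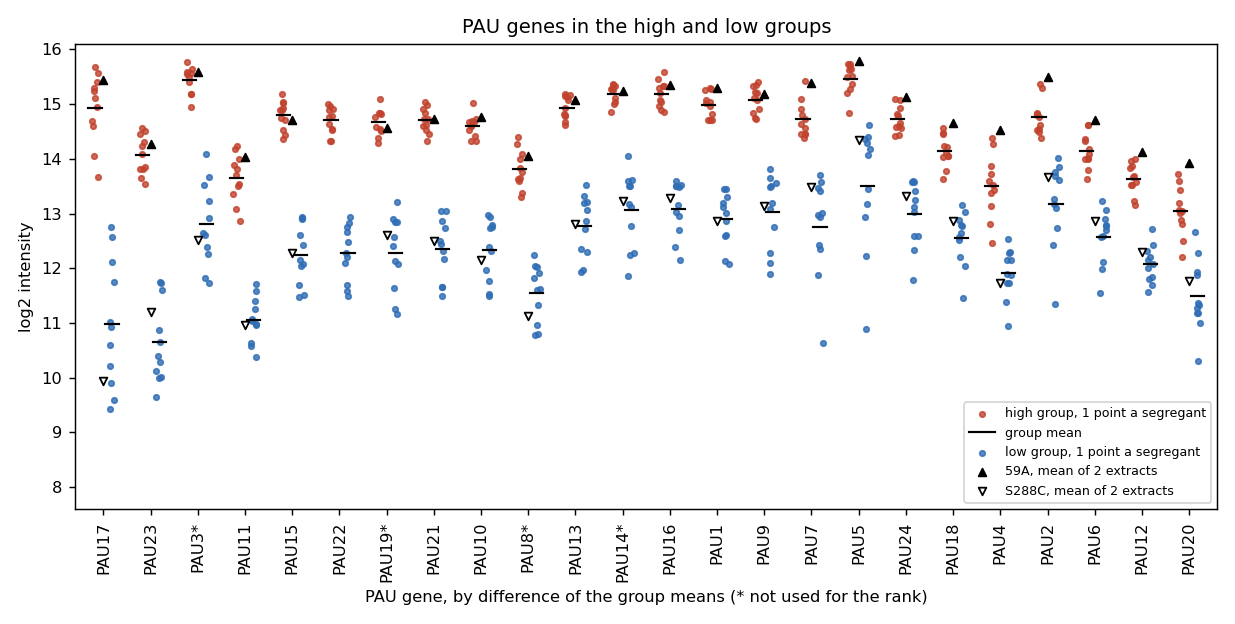
Log2 intensity (vertical axis) of the 24 PAU genes (horizontal axis, by difference of group means) in the high (red) and low (blue) group, with 1 point a segregant, group means as bars and parental means as triangles. The groups are farthest apart in PAU17, at 13.66 or more against 12.75 or less, and touch in PAU4 and PAU20.

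The family mean joined members with different orders of the segregants. For 11 of the 20 genes used, 8 or more of the gene's own 11 highest segregants belonged to the high group, and for PAU11 and PAU10 all 11 did. For the other 9 genes it was 7 or fewer: 7 for PAU5, 6 for PAU12 and PAU20, 5 for PAU24, PAU18, PAU4 and PAU6, 4 for PAU7 and 3 for PAU2. Segregants between the groups were the highest in 4 of these 9 genes, 4c in PAU7, PAU18 and PAU4 and 23c in PAU2, and segregants of the high group in the other 5. In 4c, of rank 13, PAU4 reached 14.62 and PAU2 15.51 while PAU17 was at 11.46. In 5a, of rank 22, PAU2 was at 15.30 and PAU17 at 11.01, and in 26c, of rank 26, they were at 15.08 and 10.69. The reverse was seen in 9c, where PAU17 was at 15.41 and PAU2 at 14.50. The low end was shared more widely, since 7 to 11 of each gene's own 11 lowest segregants belonged to the low group. The segregant 16b was among the 11 highest in all 20 genes, 20b in 19, and 10b in only 7.

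**Figure D3:**
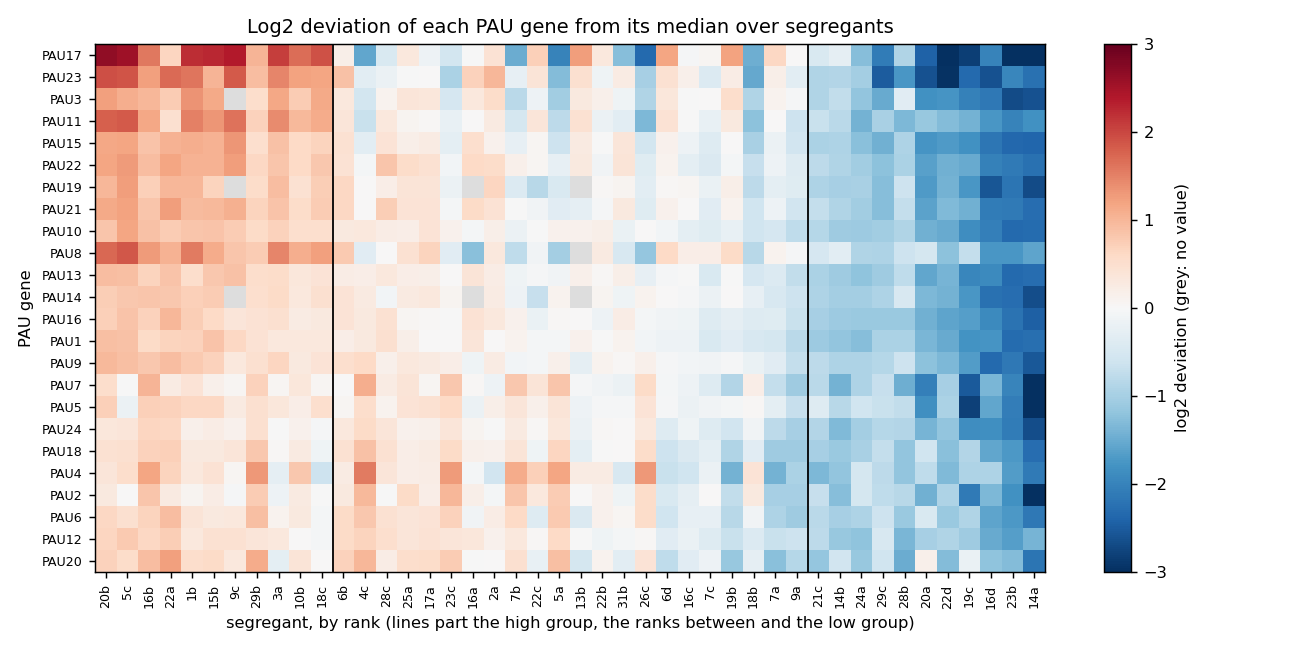
Deviation of each PAU gene (rows, by difference of group means) from its own median over the segregants (columns, by rank), in log2 units from blue (lower) to red (higher). PAU17 and its neighbours in the plot are low in 4c, 5a and 26c, where PAU4 and PAU2 are high, while the low group is blue in nearly all members.

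All 23 PAU genes with values on all parental arrays read higher in 59A than in S288C. The mean of the high group lay below 59A in 21 of them and the mean of the low group below S288C in 16. In 7 genes, among them PAU5, PAU1 and PAU12, no segregant exceeded 59A. By gene order in the reference annotation, 19 of the 24 genes lay within 10 genes of a chromosome end, and PAU genes were found on all 16 chromosomes. The 5 farther inside were PAU17 and PAU23 on chromosome XII, PAU5, PAU7 and PAU2, which thus included members with both the largest and the smaller differences.

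Outside the family, no transcript met the limit that the study set for segregants. Of 5140 features, which are named genes and unnamed probes without missing values over the segregants, 0 (0%) passed an adjusted p of 0.01 in limma, with the smallest at 0.038. At an unadjusted p under 0.05 there were 384 features (7.47%) higher and 401 (7.8%) lower in the high group, 785 in all. At an adjusted p under 0.05, 12 features (0.233%) passed, 7 higher and 5 lower. This number was unstable. It was 0 when the slide was a block and 0 when the segregants were ranked within slides. It was 0 without 1b, 9c, 14a, 15b, 19c, 22a or 28b, 2 without 29b, 3 without 3a, 4 without 18c, 5 without 20b, 6 without 16d, 7 without 22d, 20 without 14b, 21 without 10b or 24a, and 61 without 29c. The groups overlapped in every one of the 5140 features.

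The 12 features are named here because of these values. The strongest was MEP1, an ammonium permease, which was lower in the high group. Its values were 8.85 at the lowest, 9.33 at the median and 10.31 at the highest in the high group, against 9.30, 11.15 and 11.71 in the low group. The difference was -1.42 ± 0.25 (SE, limma, adjusted p = 0.038), and 9 of the 11 low segregants exceeded every high segregant. HOR7, a gene responsive to high osmolarity, read 13.19, 14.02 and 14.57 in the high and 14.02, 14.83 and 15.46 in the low group, a difference of -0.96 ± 0.18 (adjusted p = 0.038). The other 3 lower features were MET30, PAP2 and YLL067C, with differences of -0.56, -0.40 and -0.73 and an adjusted p of 0.044 each. Met30 is the F-box protein that restrains the activator of sulfur metabolism, and Pap2 a poly(A) polymerase of nuclear RNA surveillance. YLL067C is a helicase-like gene of the subtelomeric Y' elements, whose many copies its probe may not tell apart.

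Among the 7 higher features were genes of sterol, lipid and mitochondrial functions. ERG28, the scaffold of ergosterol-synthesising enzymes, read 11.96, 12.23 and 12.71 in the high and 10.81, 11.44 and 12.21 in the low group, a difference of 0.76 ± 0.14 (adjusted p = 0.038). SDH3, a membrane subunit of succinate dehydrogenase, read 11.14, 11.36 and 11.68 against 9.65, 10.47 and 11.24, a difference of 0.82 ± 0.16 (adjusted p = 0.041). Its high group was narrow, with an SD of 0.18 against 0.52 in the low group. SCM4, a protein of the outer mitochondrial membrane, differed by 1.09 ± 0.21 (adjusted p = 0.038), and 10 of the 11 high segregants exceeded every low one. AYR1, a reductase of lipid synthesis, differed by 1.07, CAB5, the last enzyme of coenzyme A synthesis, by 0.83, and MST1, the mitochondrial threonyl-tRNA synthetase, by 0.51, each with an adjusted p of 0.044. The unnamed probe A_06_P2384 differed by 0.62 (adjusted p = 0.038).

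Slides and parents were set beside these 12 features. In 11 of them the difference had the same sign on all 4 slides that held both groups, against 13.4% of all 5140 features. This is a description only, as the 12 were chosen for their difference over the same segregants. With the slide as a block the smallest adjusted p of any feature was 0.128, and 531 features had an unadjusted p under 0.05. In the parents, 59A differed from S288C with the same sign in 11 of the 12, CAB5 being the exception. Between the parents 1503 of 5969 features (25.2%) were called, with limits of 0.01 for the adjusted p and of 0.7 for the size of the log2 difference. They included 7 of the 12, namely MEP1, HOR7, ERG28, SCM4, SDH3, MST1 and YLL067C, all in the direction seen between the groups. Over the 4997 features tested in both comparisons, 58.6% had the same sign in both.

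**Figure D4:**
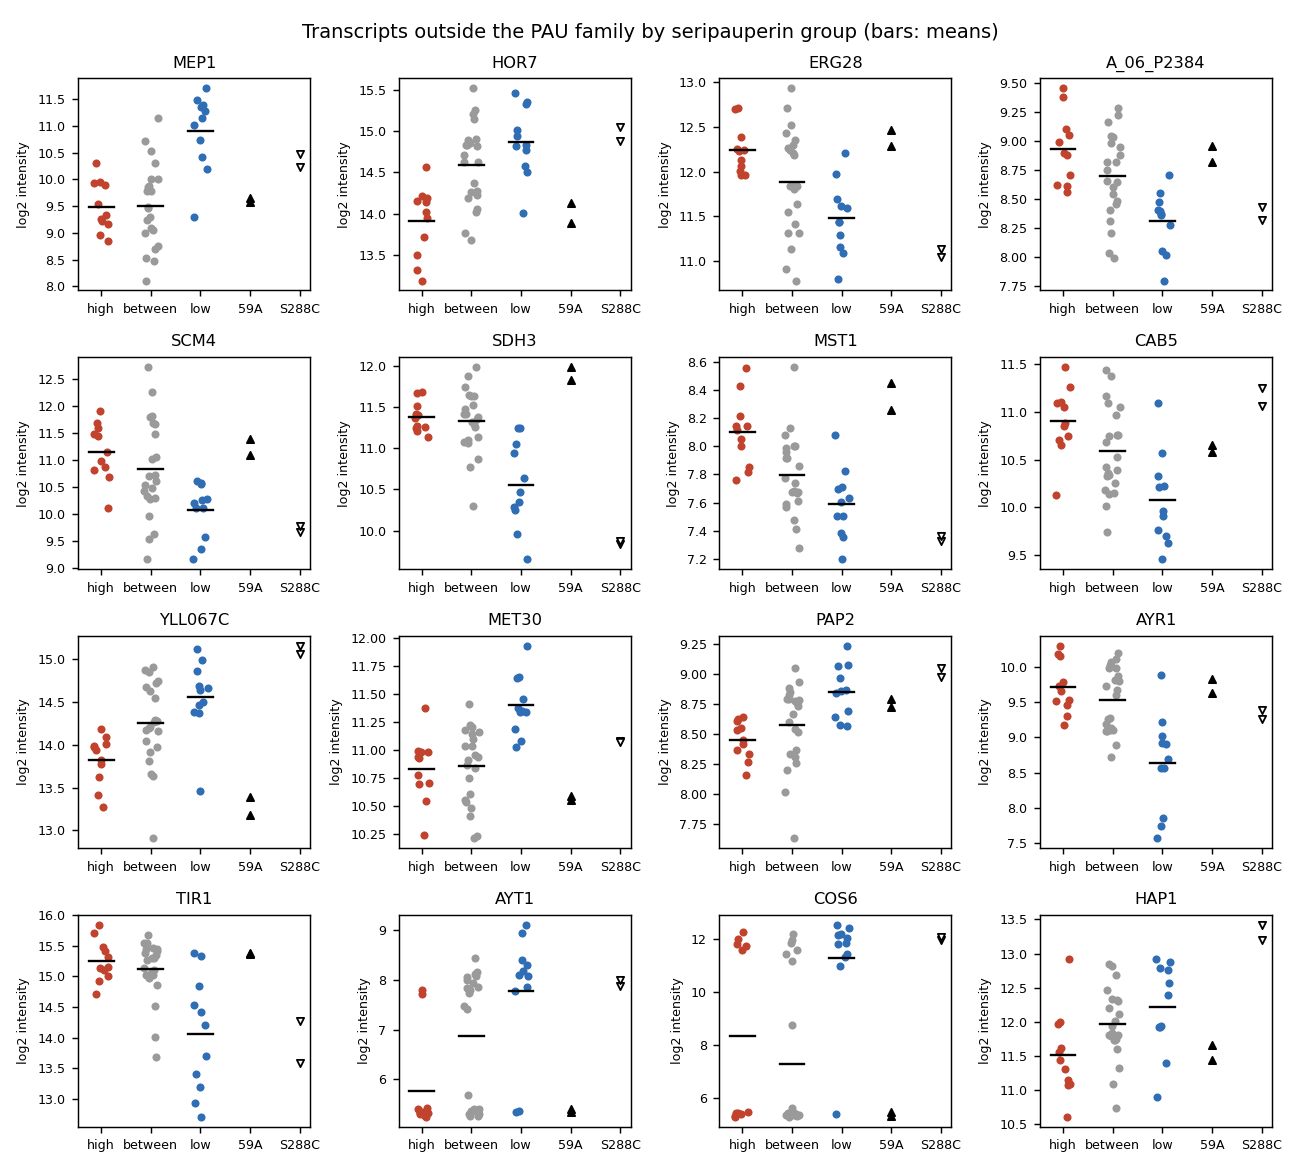
Log2 intensity (vertical axes) of the 12 features at an adjusted p under 0.05 and of TIR1, AYT1, COS6 and HAP1 in the high group, the segregants between and the low group, with 1 point a segregant, means as bars, and the 2 extracts of each parent as triangles. The groups overlap in every panel; AYT1 and COS6 fall into separate levels near those of the parents, except for COS6 in 22b, at 8.77.

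The 22 segregants between the groups, none of which entered the contrast, gave a further reading. Over them 0 of 5140 features (0%) followed the PAU level at an adjusted p under 0.01 in limma, and 88 (1.71%) had an unadjusted p under 0.05. Their PAU level spanned only 13.05 to 14.16. Of the 12 features, 5 had a slope of the same sign as the difference between the groups, and none had an unadjusted p under 0.05. For MEP1 the slope was 0.89 ± 0.53 (SE) per log2 unit of PAU level, opposite to the contrast, and for SDH3 it was 0.38 ± 0.27.

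Taken as a slope over all 44 segregants, 15 features (0.292%) followed the PAU level at an adjusted p under 0.01, 10 upward and 5 downward. These segregants include the 22 of the contrast, so the fit is no separate evidence. SDH3, AYR1 and MET30 were among them and are shared with the 12. The steepest upward slope was that of TIR1, 0.54 ± 0.11 (SE) log2 units per unit of PAU level (limma, adjusted p = 0.0044). AYR1 followed with 0.49, LPD1, the lipoamide dehydrogenase of mitochondrial enzyme complexes, with 0.43, HUL4, a ubiquitin ligase, with 0.42, SDH3 with 0.39 and COQ5, a gene of ubiquinone synthesis, with 0.36. Downward, GSH1, the entry enzyme of glutathione synthesis, had a slope of -0.50 and SNF6, a chromatin remodelling subunit, one of -0.32. The others were YJL068C, YNK1, CPR3 and PHR1 upward and NMA1 and CNM67 downward.

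Of the relatives of the seripauperins in the cell wall, all 6 DAN and TIR genes had a higher mean in the high group, and 0 of 6 passed the test. TIR1 read 14.71 at the lowest, 15.15 at the median and 15.85 at the highest in the high group, against 12.70, 14.21 and 15.38 in the low group. The difference was 1.19 ± 0.29 (SE, limma, adjusted p = 0.074), and 8 of the 11 low segregants lay below every high segregant. The parents read 15.37 in 59A and 13.93 in S288C. In the 22 between, however, the slope of TIR1 was -0.03 ± 0.36. TIR1 is close enough to the PAU genes in sequence that its probe may share their signal, which was not tested.

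For the other members the intervals without a block included 0. The difference was 0.39 for TIR3 with a 95% interval of -0.35 to 1.12, 0.39 for TIR4 with -0.06 to 0.85, and 0.30 for TIR2 with -0.65 to 1.26. DAN1 differed by 0.33 with an interval of -0.06 to 0.72, and DAN4 by 0.25 with -0.73 to 1.23. With the slide as a block DAN1 differed by 0.62, with an interval of 0.22 to 1.02 and an adjusted p of 0.287, and TIR3 by 0.12. The low group was the wider in all of them: DAN4 ran from 8.45 to 12.52 there and from 9.23 to 11.30 in the high group. Between the parents TIR1, TIR2, TIR3 and DAN4 were called, all higher in 59A, by 1.45, 1.62, 2.59 and 2.45. The upper bounds of 1.12, 1.26 and 1.23 for TIR3, TIR2 and DAN4 lay below these parental differences.

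Of 23 measured regulators of hypoxic and seripauperin genes 0 passed the test. At an unadjusted p under 0.05, 0 were higher and 4 lower (17.4%), against 15.3% of all features. The differences ran from -1.02, for NRG1, to 1.04, and the 6 named by rule follow. HAP1, the haem-responsive activator, read 10.61, 11.44 and 12.92 in the high and 10.91, 12.39 and 12.91 in the low group. The difference was -0.70, with an interval of -1.24 to -0.15, an unadjusted p of 0.014 and an adjusted p of 0.221. With the slide as a block it was -0.45, with an unadjusted p of 0.052 and an adjusted p of 0.486. 59A read 11.56 against 13.31 in S288C. In the 22 between the slope was 0.32 ± 0.37. MOT3, a repressor of hypoxic genes, differed by -0.51 (-1.06 to 0.04) and the parents by -1.58, 59A being the lower. ROX1 differed by 0.39 (-0.40 to 1.18), UPC2 by 0.24 (-0.15 to 0.64), SUT1 by 0.18 (-0.38 to 0.74) and ECM22 by 0.09 (-0.17 to 0.35). With the slide as a block MOT3 differed by -0.28, ROX1 by 0.61, UPC2 by 0.07 and SUT1 by 0.03. For UPC2 the sign was opposite in the parents, at -1.18.

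Targets of hypoxia and sterol depletion were measured for the same question. HEM13, an oxygen-dependent enzyme of haem synthesis that hypoxia induces, read 11.91, 12.87 and 13.71 in the high and 10.19, 12.40 and 14.59 in the low group. The low group thus reached both lower and higher, and the difference was 0.30 (-0.73 to 1.34), or 0.19 with the slide as a block, against 3.00 between the parents. OLE1, the fatty acid desaturase, was near saturation in both groups, at 15.73 and 15.55 in the mean. PDR11 and AUS1 are the sterol importers of anaerobic cells. PDR11 differed by 0.60 (0.17 to 1.04, adjusted p = 0.196) and AUS1 by -0.03 (-0.94 to 0.87). Of 19 measured hypoxic genes 3 were higher and 1 lower at an unadjusted p under 0.05 (21.1% together), against 15.3% of all features. Their median difference was 0.18. The largest upward difference, both in this list and over all features, was that of CYC7. It ran from 12.56 to 13.96 in the high group and from 7.02 to 14.46 in the low group. Its lowest values were those of 20a, at 7.02, and 19c, at 8.41.

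Genes of several pathways leaned one way without passing the test. Over all 5140 features the median difference was -0.020 and 15.3% had an unadjusted p under 0.05. Of these features 2321 had a higher and 2819 a lower mean in the high group. Members of a list can vary together, and counts of signs take no account of that. Of 55 genes of the mitochondrial ribosome, 53 had a higher mean in the high group and 27 (49.1%) an unadjusted p under 0.05, all higher, with a median difference of 0.27. MRPL1 differed by 0.41 and MRPS8 by 0.75. With the slide as a block the median was 0.17 and 5 of the 55 were higher at an unadjusted p under 0.05. Over all 5140 features 225 were higher in that setting, a similar share. With ranks within slides 13 of the 55 were higher, against 217 of all features. Without 19c and 20a 16 were, against 256 of all features. Of 28 genes of the respiratory chain and ATP synthase, 11 (39.3%) were at an unadjusted p under 0.05, all higher, with a median of 0.44. SDH3 was the member at an adjusted p under 0.05. ATP16, a subunit of the synthase, differed by 0.63 and COX5B, the hypoxic isoform of a cytochrome oxidase subunit, by 0.84. With the slide as a block 9 of the 28 were higher at the unadjusted limit, with a median of 0.53. With ranks within slides 10 were, with a median of 0.48.

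Trehalose and glycogen genes had the highest median, 0.52 over 18 genes, of which 8 (44.4%) were at an unadjusted p under 0.05. With the segregants ranked within slides the median was 0.34 and 1 of the 18 was at that limit. GPH1, glycogen phosphorylase, read 12.47, 13.05 and 14.01 in the high and 8.10, 12.18 and 14.13 in the low group. PGM2, the main phosphoglucomutase, differed by 1.38 and GDB1, the debranching enzyme, by 1.18. The low ends of GPH1 and GDB1 came from 19c and 20a. Without these 2 segregants the median of the list was 0.31, with 5 of 18 at an unadjusted p under 0.05, and that of the respiratory genes was 0.22, with 3 higher and 1 lower of 28. The cytosolic ribosomal proteins moved more: 108 of 109 had a lower mean in the high group, with a median of -0.34, but without 19c and 20a the median was -0.05. Of the 109, 6 (5.5%) were lower at an unadjusted p under 0.05, which is below the share over all features. A block for the slide made it 20 of the 109, with a median of -0.50. Over all 5140 features 306 were lower in that setting, which is a smaller share. The number lower of the 109 was 1 without 19c and 20a and 3 with ranks within slides.

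Sulfur and nitrogen genes leaned downward. Of 30 genes of sulfate assimilation and methionine synthesis, 26 had a lower mean in the high group and 8 (26.7%) were lower at an unadjusted p under 0.05, with a median of -0.48. The number lower was 4 with the slide as a block and 5 with ranks within slides. MET30 was the member at an adjusted p under 0.05. MET32, a regulator of the pathway, read 7.11, 7.37 and 8.60 in the high and 7.37, 8.94 and 9.66 in the low group, a difference of -1.09 ± 0.27 (adjusted p = 0.074). With the level of the chromosome 16 arm as a covariate it passed, at -1.08 and an adjusted p of 0.0038. MET2 differed by -1.03 and STR3 by -0.92. Of 22 genes under nitrogen catabolite repression 20 had a lower mean in the high group, with a median of -0.45, or -0.27 with the slide as a block. At an unadjusted p under 0.05, however, 3 were lower and 2 higher (22.7% together). MEP1 belongs to this list, and UGA1 and CAR2, of 4-aminobutyrate and arginine breakdown, went the other way with differences of 0.63 and 0.49.

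Ergosterol synthesis split by gene. Of 21 measured genes 6 were higher and 1 lower at an unadjusted p under 0.05 (33.3% together), with a median difference of 0.21. Besides ERG28 these included the early genes MVD1, with a difference of 1.01, ERG10, with 0.59, and ERG12, with 0.48. When the segregants were ranked within slides, 0 were higher and 2 lower, with a median of -0.05. Among 35 other cell wall genes the median was 0.07, with 5 higher and 2 lower at that limit (20% together). FKS1, a glucan synthase, differed by 0.74 and EXG1, an exoglucanase, by 1.52, while CHS1, a chitin synthase of cell separation, differed by -0.85. Over the 22 segregants between, the median slope was 0.013 for the mitochondrial ribosome, -0.006 for the respiratory chain and 0.012 for trehalose and glycogen. Over all features it was 0.0097. For the respiratory chain the sign was thus opposite to that of the contrast. The same held for nitrogen genes, at 0.18, and ergosterol genes, at -0.32. The sign was the same for sulfur genes, at -0.38, cytosolic ribosomal proteins, at -0.09, and other cell wall genes, at 0.098.

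**Figure D5:**
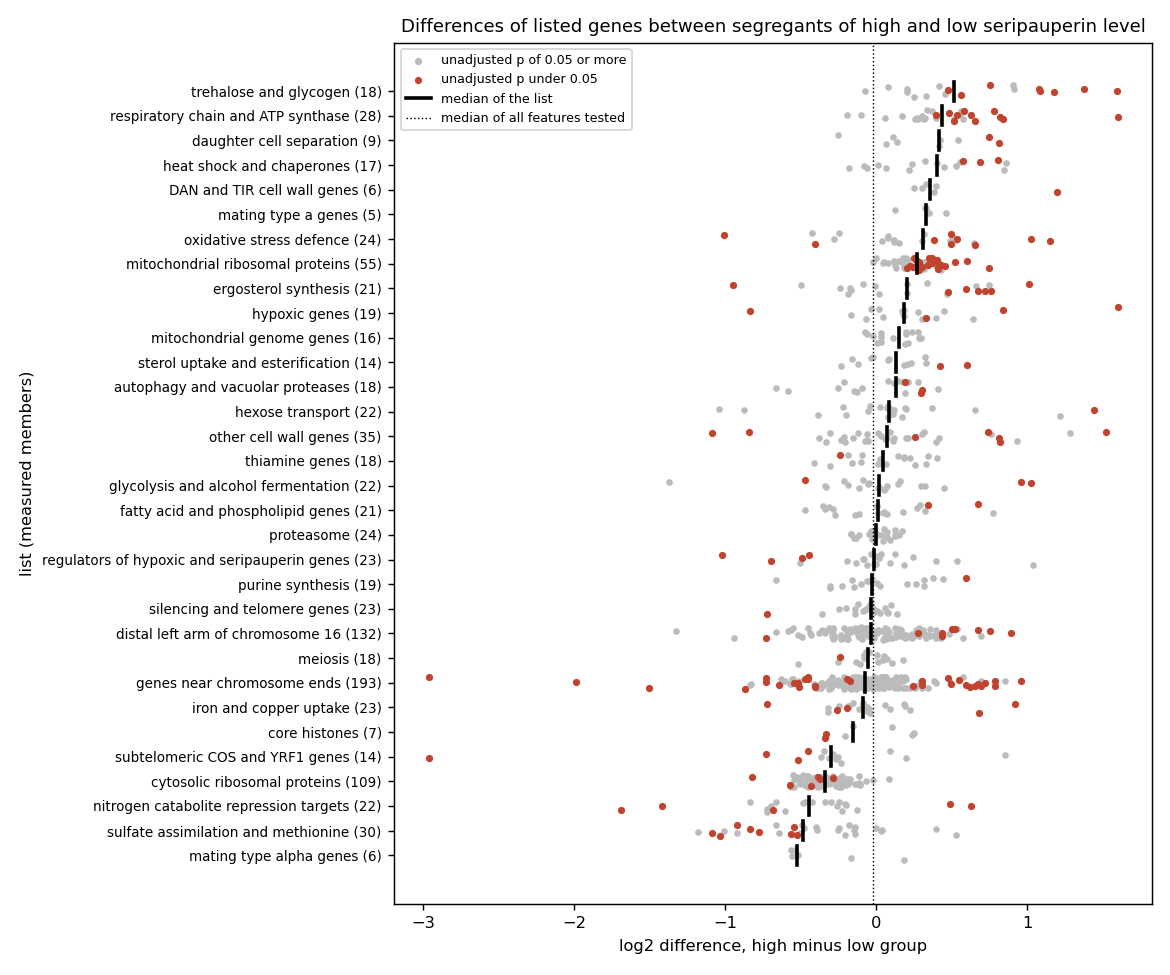
Log2 difference between the high and low group (horizontal axis) for the measured genes of 32 lists (vertical axis, by median), with 1 point a gene, red at an unadjusted p under 0.05, and medians as bars. Trehalose and glycogen genes have the highest median, 0.52, and no point passed an adjusted p of 0.01.

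The neighbours of the PAU genes on the chromosomes were looked at as genes that the rank did not use. The nearest measured genes on either side, up to 10 genes away, numbered 42, of which 4 were higher and 5 lower at an unadjusted p under 0.05. The shares over all 5140 features were 7.47% higher and 7.8% lower. The median difference of the 42 was -0.03, and 0 of them passed an adjusted p of 0.05. Among the 42 were COS6, next to PAU12, and AYT1, next to PAU18. AYT1 encodes an acetyltransferase, and COS6 a member of the conserved subtelomeric family of membrane proteins that aid protein sorting to the vacuole.

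They are described because their values, once seen, fell into separate levels. AYT1 was at background in 59A, at 5.38, and at 7.93 in S288C, and in the segregants it lay either at 5.69 or less or at 7.41 or more. The upper level was found in 2 of the 11 high segregants, 15b and 3a, in 13 of the 22 between and in 9 of the 11 low segregants. In limma the adjusted p was 0.062, and no fold is given because 9 of the high segregants were at background. The PAU level of the 24 segregants at the upper level had a median of 13.48, with a range of 11.26 to 14.52, and that of the 20 at background a median of 14.02, with a range of 12.72 to 14.72. COS6, at 5.38 in 59A and 12.02 in S288C, was at 5.59 or less in 22 segregants and between 10.98 and 12.56 in all others but 22b, which read 8.77 and was near neither parent. It was above background in 5 high, 7 middle and 10 low segregants (limma, adjusted p = 0.234).

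Farther along the chromosome ends no common shift was seen, but the COS and YRF1 genes leaned downward. Of 193 measured genes among the 10 nearest to an end, 15 were higher and 17 lower at an unadjusted p under 0.05, 16.6% together and near the share over all features, and the median difference was -0.08. The COS and YRF1 genes, of which 14 were measured, had a median of -0.30, and 11 had a lower mean in the high group. At the same limit 0 were higher and 4 lower (28.6%), against 7.8% lower over all features. Without 19c and 20a 7 of the 14 were lower, against 300 of 5140 features. With the slide as a block 3 were lower and 1 higher. With ranks within slides 4 were lower and 1 higher, with a median of -0.09. In the 22 segregants between, their median slope was 0.25, opposite in sign to the contrast. Without 20a, YLL067C and YEL077C, both of Y' elements, passed an adjusted p of 0.01 with differences of -0.84 and -0.79. Of 23 genes of silencing and telomere functions 1 (4.3%), HST2, a deacetylase, was at an unadjusted p under 0.05, with a difference of -0.72. The genes of the distal left arm of chromosome 16 had a median of -0.04, and of the genes specific to a or alpha cells 0 had an unadjusted p under 0.05.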

How the data were processed

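The deposited values are log2 spot-median intensities to which the authors applied quantile normalization across arrays, in limma and R 2.13.1. This fixes the distribution of each array and hides any change common to all transcripts. Of 6245 probes 5197 carried a gene name, 51 of them updated from older symbols. Missing values were not filled in. The array's genome build is not named, and the reference annotation gave only names and the order of genes. No sequence is given, as none was in the tables used here.

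The contrast of the 22 segregants was fitted in R 4.3.3 by limma 3.58.1, with Benjamini-Hochberg adjustment over 5140 features outside the family and a limit of 0.01. The parents were compared on extract means, 2 with 2. SE and 95% intervals are limma's. The fit was run on simulated data, drawn feature by feature from normal distributions. These held no variation shared between features and no slide effect, so the check does not cover such variation. The precision is limited by the number of arrays, 1 for a segregant. Members, lists and tests were chosen with earlier results of these data known. Named by rule were the PAU, DAN and TIR genes, 6 regulators, HEM13, OLE1, AUS1 and PDR11; all other genes were named after their values were seen. Alternatives concerned slide, ranking, group size, filters, covariates and single segregants. Python 3.11.15 and matplotlib 3.10.9 were used for counts and plots.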

Additional observations from a re-analysis of the deposited data

How the results depend on the processing

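No feature passed an adjusted p of 0.01 in the contrast or in 12 of the alternatives. Among these, a minimum difference of 0.7 only narrowed the contrast and could add no call. Omitting 9c and 13b was the same as omitting 9c, since 13b lay between the groups. The slope over all 44 gave 15 (10 higher and 5 lower), 15 against 15 gave 1, HOR7 (lower), the chromosome 16 arm level as a covariate gave 2 (1 higher and 1 lower), and omitting 19c and 20a gave 2 (both lower). Omitting single segregants gave 0 to 2, with 2 lower without 20a or without 29c. A limit of 0.05 gave 12 (7 and 5). At that limit the alternatives gave 0 with slide as a block, ranks within slides, or without 9c and 13b, 83 with all 44 in 3 groups, 183 for the slope, 20 for 8 against 8, 1 for 15 against 15, 19 for ranks by the median, 5 with features of at least 9 values a group, 46 with the arm and 28 with the mating type a level as a covariate, and 7 without 19c and 20a; omitting single segregants gave 0 to 61. The cause of these shifts was not tested.

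TIR1 passed in the slope over all 44, at 0.54. ROX1 and ECM22 changed sign with ranks within slides, to -0.079 and -0.043. AUS1, at -0.03, became 0.043 in the slope, 0.29 with 15 against 15, 0.068 with ranks within slides and 0.24 without 19c and 20a, and -0.29 to 0.12 on omitting single segregants. No slope in the 22 between passed under any of 3 settings. The parents gave 1503 calls, 1528 with the replicate number as a block, and 1398 to 1610 without single extracts; the labels do not say that equal numbers mark paired extracts.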
